A study of Homo sapiens with 6 samples.

Results

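The genes described here encode the 2 mTOR complexes and their nearest upstream regulators, 10 genes chosen by symbol from the 26364 genes of the authors' deposited table: MTOR, RPTOR, RICTOR, MLST8, DEPTOR, AKT1S1, TSC1, TSC2, RHEB and DDIT4. The table compares RNA from REH cells, an established human cell line from acute lymphoblastic leukaemia of B-cell precursors that carries the ETV6-RUNX1 fusion, in 3 shSTAT3 cultures and 3 scramble cultures from independent experiments. The shSTAT3 cells received a lentiviral short hairpin RNA against STAT3 and the scramble cells a control hairpin. All 6 cultures went through 3 days of puromycin and a removal of dead cells. It is 1 cell line, and the number of hairpins against STAT3 is not given in the sources used here. Each row of the table is 1 gene with a mean over all 6 libraries, a fold change on the log2 scale and its p before and after adjustment, and no value per library or per group, so the replicates cannot be shown one by one. A normalized count is a read count scaled for the depth of its library. A gene is said here to be tested where it has an adjusted p, and to be called, to rise or to fall where the authors' two-sided test gave an adjusted p under 0.05. The fold changes were shrunken toward 0 by the authors' method, so they and the 95% intervals computed from them understate the changes, most of all for genes with low counts.

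mTOR is a serine/threonine kinase that joins growth factor, nutrient and stress signals to protein synthesis, lipid synthesis and autophagy. It works in mTORC1, where RPTOR (Raptor) brings in substrates such as S6 kinase and the 4E-BP proteins, and in mTORC2, where RICTOR stands in for Raptor and AKT is the main substrate. The small GTPase RHEB switches mTORC1 on at the lysosome, the TSC1-TSC2 complex switches RHEB off, and DDIT4 (REDD1) is a stress-induced protein that acts through TSC. In lymphoblastic leukaemia the pathway is studied as a drug target.

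Of the 10 genes, TSC1, TSC2, AKT1S1, RPTOR and RICTOR were called higher in shSTAT3 cells and RHEB was called lower. TSC2 rose 1.42-fold and TSC1 1.27-fold, AKT1S1 rose 1.43-fold and RPTOR 1.26-fold, while RHEB fell to 75.9% of its scramble level per the authors' deposited table. RICTOR rose 1.23-fold at the very edge of the threshold, and MTOR, MLST8, DEPTOR and DDIT4 did not pass an adjusted p of 0.05. All 10 genes had an adjusted p, so none was lost to the filter on low means. The count of 6 called genes among 10 stands beside 44.5% called among all 12061 tested genes. Of the 10 genes 5 were called higher, against 21.3% of tested genes, and 1 was called lower, against 23.2%. The 9 genes other than DEPTOR had means between 451 and 1841 normalized counts, and 51.6% of the 4317 tested genes within that range were called. The median log2 fold change was 0.19 over the 10 genes and 0.0027 over all tested genes.

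The promoters of TSC2, RHEB and DDIT4 are shown because these are the upstream regulator with the smallest p, the gene of the set that fell, and the gene whose fold change lay farthest from 0. Each runs from 250 bases before to 50 bases after a RefSeq transcript start, 5′ to 3′ on the strand of the gene, from RefSeq on GRCh38.p14. Capitals mark letters that match ACGTG (the core bound by hypoxia-inducible factors), CACGTG (the E-box bound by MYC and TFEB), TGATGNAA (an element bound by ATF4) or TGACGT (the cAMP response core), each searched on both strands. The first of 2 TSC2 windows lies at chr16:2047735-2048034 on the plus strand, the RHEB window at chr7:151519846-151520145 on the minus strand and the DDIT4 window at chr10:72273674-72273973 on the plus strand.
TSC2: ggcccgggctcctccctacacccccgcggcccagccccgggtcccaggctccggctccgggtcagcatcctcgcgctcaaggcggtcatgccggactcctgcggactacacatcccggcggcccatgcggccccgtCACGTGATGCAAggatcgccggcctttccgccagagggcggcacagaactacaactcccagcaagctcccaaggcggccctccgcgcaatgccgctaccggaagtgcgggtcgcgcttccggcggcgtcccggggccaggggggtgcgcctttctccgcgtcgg
RHEB: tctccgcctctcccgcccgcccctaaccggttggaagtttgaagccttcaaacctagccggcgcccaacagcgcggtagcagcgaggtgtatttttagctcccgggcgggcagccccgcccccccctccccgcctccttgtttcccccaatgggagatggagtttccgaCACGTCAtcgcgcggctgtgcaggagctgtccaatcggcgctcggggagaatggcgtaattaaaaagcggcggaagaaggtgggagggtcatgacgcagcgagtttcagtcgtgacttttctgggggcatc
DDIT4: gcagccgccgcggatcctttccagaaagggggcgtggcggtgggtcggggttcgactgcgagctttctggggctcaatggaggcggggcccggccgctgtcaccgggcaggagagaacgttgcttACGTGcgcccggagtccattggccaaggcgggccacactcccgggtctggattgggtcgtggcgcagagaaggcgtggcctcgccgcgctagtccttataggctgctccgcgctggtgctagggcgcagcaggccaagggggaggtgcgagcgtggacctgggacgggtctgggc

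The second TSC2 window, at chr16:2047952-2048251, holds no match. In the printed window an E-box runs straight into the ATF4 element, so that the 2 matches overlap, and each strand of the E-box also holds ACGTG. In the RHEB window ACGTG and TGACGT overlap on the reverse strand, and in DDIT4 a lone ACGTG lies on the forward strand. The STAT motif TTCNNNGAA, searched on both strands, matched none of the 8 windows found for 7 of the 10 genes, and it is held by 7.66% of all 35116 promoters in the table. ACGTG matched 4 of the 8 windows, those of RICTOR, TSC2, RHEB and DDIT4, and 21.4% of all promoters. These 4 windows held 62.3% to 74.0% G and C, and the windows without ACGTG 48.0% to 74.7%, beside a median of 58.7% over all promoters. The part of base content in the matches was not tested, and the 2 TSC2 windows overlap. CACGTG, TGATGNAA and TGACGT each matched 1 of the 8, and 7.26%, 3.62% and 7.98% of all promoters. These are matches of letters in a window and not sites of binding. AKT1S1 and MLST8 have no entry, and DEPTOR was not searched here.

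The targeted gene, STAT3, was at 29.8% of scramble per the authors' deposited table (adjusted p = 7.78e-74, log2 fold change −1.75). The table does not name the numerator of its fold changes, so a negative value was read as lower in shSTAT3 because STAT3 is the gene the hairpin targets. Of 10 markers of B-cell precursor leukaemia 9 had a mean of at least 50, and VPREB1, a surrogate light chain gene, was listed at 0. Of those 9 tested markers 2 rose and 5 fell, where 21.3% of all tested genes rose and 23.2% fell. Summed means were 72434 normalized counts for the B-cell precursor markers, 3011 for 8 myeloid markers, 6.65 for 6 markers of T and NK cells and 858 for 6 fibroblast and epithelial markers. MPO made up most of the myeloid sum, and 1 gene with a mean of 806 normalized counts made up most of the fibroblast and epithelial sum. CD3D, CD3G, COL1A2, EPCAM and KRT18 were listed at 0. Of the 4 myeloid markers tested 1 rose and 2 fell, of the 2 fibroblast and epithelial markers tested both fell, and no T or NK marker was tested, counts too small to set against the 44.5% called over all tested genes. The part of these markers in the results was not tested. Lower RNA per cell and fewer cells of a kind cannot be told apart in bulk RNA.

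**Figure D1:**
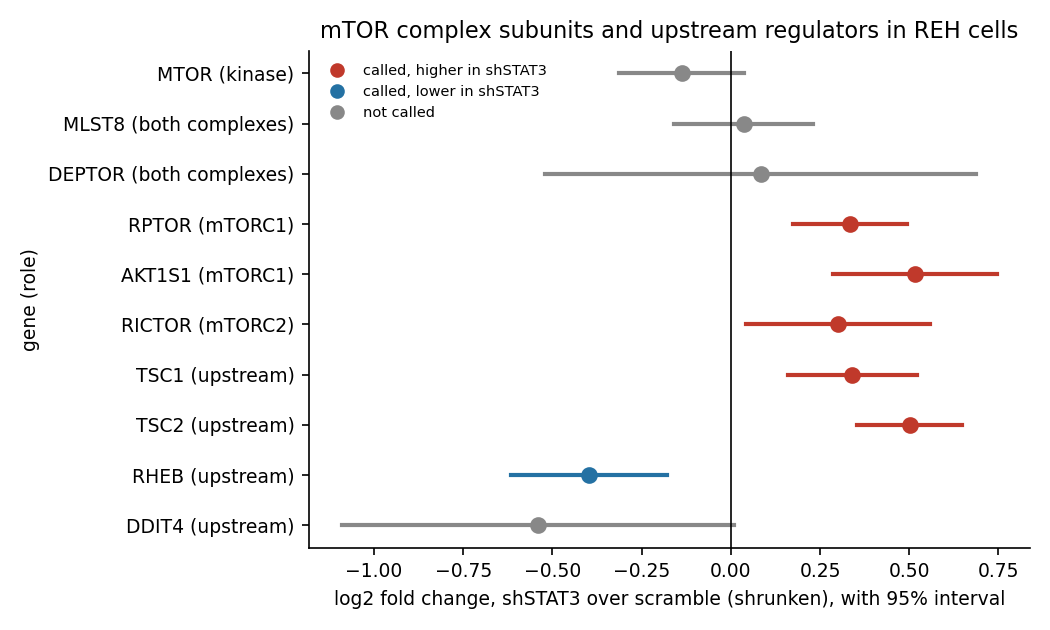
Log2 fold change of each of the 10 genes, shSTAT3 over scramble, as points with 95% intervals as lines, grouped by role from the kinase at the top to the upstream regulators at the bottom. The 5 red genes lie to the right of 0, RHEB lies to the left at −0.40, and DEPTOR and DDIT4 have the widest intervals.

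The catalytic subunit was not called. MTOR, on the minus strand of chromosome 1 from 11106535 to 11262507 (all gene positions are those of GENCODE release 29 on GRCh38), had a mean of 1776 normalized counts and a log2 fold change of −0.14 per the authors' deposited table (95% CI −0.31 to 0.04, adjusted p = 0.208). Its interval reaches from 80.4% to 103% of the scramble level. MLST8, the WD-repeat subunit that binds the kinase domain in both complexes, lies on the plus strand of chromosome 16 from 2204248 to 2209416. It had a mean of 665 normalized counts and a log2 fold change of 0.04 per the authors' deposited table (95% CI −0.16 to 0.23, adjusted p = 0.796). The interval of MLST8 spans 89.6% to 117% of scramble.

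DEPTOR, an inhibitory subunit found in both complexes, had the lowest count. It had a mean of 21.7 normalized counts over the 6 libraries per the authors' deposited table, at percentile 5.97 of tested genes, and a log2 fold change of 0.08 (adjusted p = 0.850). DEPTOR lies on the plus strand of chromosome 8 from 119873717 to 120050913. The interval ran from 69.7% to 161% of scramble, and as the values are shrunken a change beyond those limits could also have been missed.

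Both subunits particular to mTORC1 rose. RPTOR, on the plus strand of chromosome 17 from 80544819 to 80966371, had a mean of 1267 normalized counts and a log2 fold change of 0.33 per the authors' deposited table (95% CI 0.17 to 0.49, adjusted p = 0.000224). AKT1S1 encodes PRAS40, which binds Raptor, holds mTORC1 back and is released when AKT phosphorylates it. It lies on the minus strand of chromosome 19 from 49869033 to 49878459, had a mean of 451 normalized counts and had a log2 fold change of 0.52 per the authors' deposited table (95% CI 0.29 to 0.75, adjusted p = 6.13e-05). AKT1S1 thus had the highest fold change of the 10, but its interval overlaps those of RPTOR, TSC1, TSC2 and RICTOR. A count made without strand could mix AKT1S1 with TBC1D17 on the opposite strand, which shares 6.83% of the AKT1S1 exon bases and also rose per the authors' deposited table (adjusted p = 0.000193, log2 fold change 0.42).

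RICTOR, the defining subunit of mTORC2, lies on the minus strand of chromosome 5 from 38937919 to 39074408 and had a mean of 1102 normalized counts. Its log2 fold change was 0.30 per the authors' deposited table (95% CI 0.04 to 0.56, adjusted p = 0.04998). By p-value RICTOR ranked 5368 among tested genes, next to last of the 5369 called. The call was lost when the adjustment was made over all genes with a p-value (adjusted p = 0.0723), and the range over all alternatives was 0.0463 to 1. The fold change of RICTOR was close to that of RPTOR, which exceeded it by 0.03 on the log2 scale, but the standard error was 0.13 for RICTOR and 0.082 for RPTOR at similar means.

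The 2 genes of the TSC complex, the brake on RHEB, rose together. TSC2 encodes the subunit with the GTPase-activating domain and lies on the plus strand of chromosome 16 from 2047465 to 2089487. With a mean of 1752 normalized counts and a log2 fold change of 0.50 per the authors' deposited table (95% CI 0.35 to 0.65, adjusted p = 3.09e-10), it had the smallest p of the 10 genes and ranked 835 among tested genes. TSC1, which encodes the subunit that stabilises TSC2, lies on the minus strand of chromosome 9 from 132891348 to 132946874. It had a mean of 903 normalized counts and a log2 fold change of 0.34 per the authors' deposited table (95% CI 0.16 to 0.52, adjusted p = 0.000901). The exons of TSC2 meet PKD1 and NTHL1 on the opposite strand over 3.96% and 2.05% of their bases. PKD1 was called at a log2 fold change of 0.18 and NTHL1 was not called at 0.19 per the authors' deposited table (adjusted p = 0.0433 and 0.242). TBC1D7, which encodes the third subunit of the complex, was not called per the authors' deposited table (adjusted p = 0.823, log2 fold change −0.04).

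RHEB was the 1 gene of the set that fell. It lies on the minus strand of chromosome 7 from 151466012 to 151520120, with a mean of 474 normalized counts and a log2 fold change of −0.40 per the authors' deposited table (95% CI −0.62 to −0.18, adjusted p = 0.00139). The fold change of TSC2 exceeded that of RHEB by 0.90 on the log2 scale, and the 2 intervals do not overlap. No test of this difference can be given, because the table does not hold how the 2 genes vary together over libraries. RHEB has 3 processed pseudogenes in GENCODE release 29, RHEBP1, RHEBP2 and RHEBP3, and its count depends on how reads shared with them were assigned. None of the 3 is listed under these symbols in the authors' deposited table. RHEBL1, a close relative of RHEB that was not among the genes chosen by rule for naming, was not called per the authors' deposited table (adjusted p = 0.304, log2 fold change −0.30).

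DDIT4 had the fold change farthest from 0 and was not called. The gene lies on the plus strand of chromosome 10 from 72273920 to 72276036, and its mean of 1841 normalized counts was the highest of the 10. Its log2 fold change was −0.54 per the authors' deposited table (95% CI −1.09 to 0.0078, adjusted p = 0.105), which is a level of 68.7% of scramble with an interval from 47.0% to 101%. DDIT4L, the REDD2 gene related to DDIT4, had a mean of 174 normalized counts and fell to 49.2% of scramble per the authors' deposited table (adjusted p = 4.53e-07, log2 fold change −1.02). In GENCODE release 29 the antisense gene DDIT4-AS1 shares 41.2% of the DDIT4 exon bases, so that a count made without strand could hold reads of both. DDIT4-AS1 is not listed under this symbol in the authors' deposited table.

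The error of DDIT4 set it apart from the rest. The standard error implied by its fold change and p-value was 0.28, which is 3.69 times the median of 0.0759 in its class of mean (8 classes of equal size over tested genes), and it was the second largest of the 1508 genes in that class. RICTOR was next, at 1.51 times the median of its class and rank 19 of 1507, and MTOR followed at 1.18 times. The other 7 genes lay between 0.937 and 1.04 times their class median. A standard error of this kind depends in part on how far libraries of the same group differed. It also depends on the authors' model, whose formula is not given, and on the shrinkage. Which library of DDIT4 was high or low cannot be read from the table. Of the 65 tested genes with more than 2 times the median of their class, a ratio out of reach for means under 138, DDIT4 was the 1 gene of the set, and no other gene of the pathway lists was among them.

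**Figure D2:**
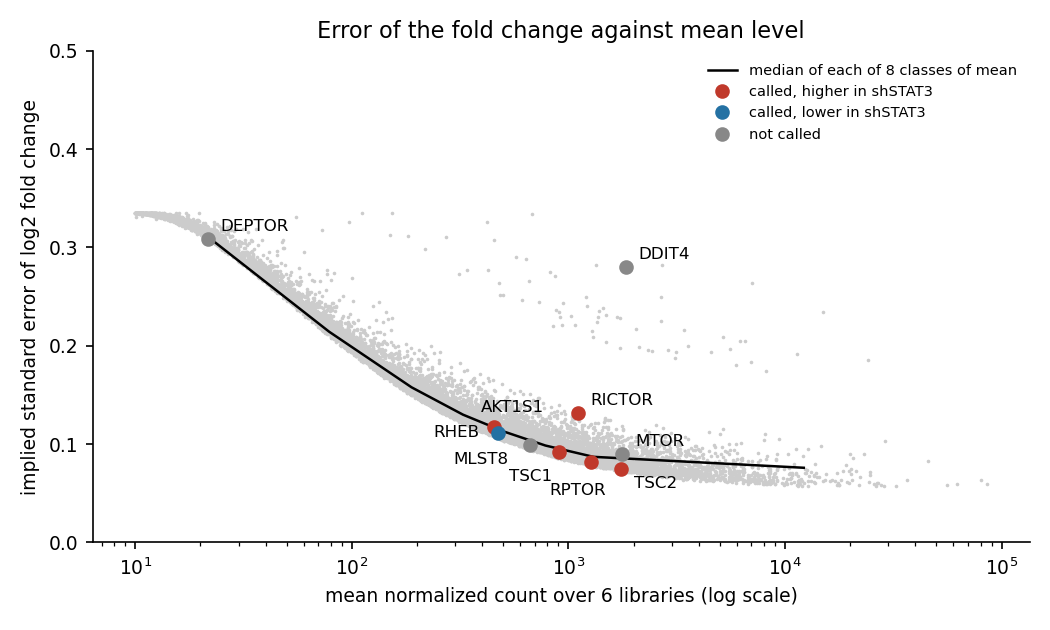
Implied standard error of the log2 fold change (vertical axis) against the mean normalized count over the 6 libraries (horizontal axis, log scale) for all tested genes in light grey and the 10 genes in colour. DDIT4, at a standard error of 0.28, lies well above the black line of class medians, and RICTOR lies above it at 0.13.

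**Figure D3:**
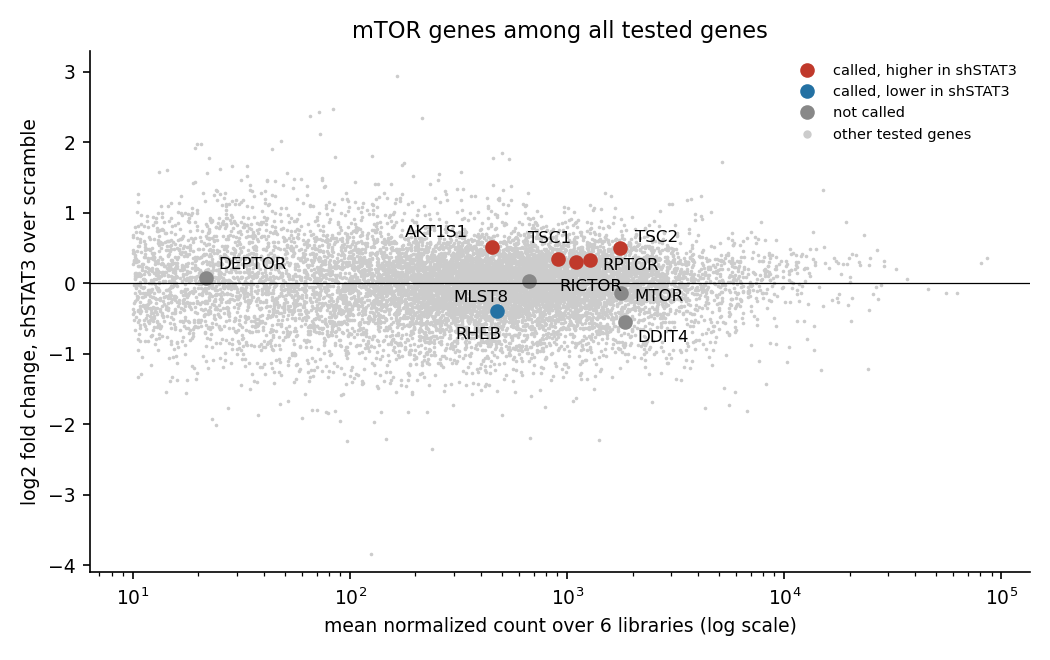
Log2 fold change, shSTAT3 over scramble (vertical axis), against the mean normalized count over the 6 libraries (horizontal axis, log scale) for all 12061 tested genes and the 10 genes in colour. The 10 genes lie between −0.54 and 0.52, inside the cloud of tested genes, and DEPTOR lies far to the left at a mean of 21.7.

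Levels of different genes were compared per kilobase of exon, on the mean over both groups, since the table gives no level per group. DDIT4 was the most abundant of the 10 at 894 normalized counts per kilobase, higher than 96.5% of tested genes of known length. MLST8, MTOR, RHEB and RPTOR followed at 154, 147, 134 and 123 normalized counts per kilobase. TSC2 had 89.3, RICTOR 81.4, AKT1S1 78.7 and TSC1 51.3 normalized counts per kilobase, so the transcripts of RPTOR and MTOR stood above that of RICTOR on this scale. DEPTOR was last at 8.28 normalized counts per kilobase. Lengths here are all annotated exons of a gene, and TSC2, with an exon sum of 19626 bases, moved up to 276 normalized counts per kilobase when the longest transcript was used in their place. No spread over libraries is available for these levels, so neighbours in this order cannot be told apart.

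The other genes of the pathway, 101 in 9 lists by role, gave 41 calls among 99 tested, 17 higher and 24 lower. That is 41.4%, near the 44.5% of all tested genes, and their median log2 fold change was −0.03. The share called ran from 14.3% in the list of amino acid sensors to 63.2% in that of effectors, over lists of 6 to 21 tested genes.

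Among the remaining mTORC2 partners and relatives of the upstream genes, 3 of 6 fell and none rose, DDIT4L among them. That is 50% called, beside 44.5% of all tested genes, of which 21.3% rose and 23.2% fell. MAPKAP1 encodes mSIN1, the substrate-binding subunit of mTORC2, and fell to 82.3% of scramble per the authors' deposited table (adjusted p = 0.00304, log2 fold change −0.28). PRR5L, which encodes another mTORC2-associated protein, fell to 55.1% per the authors' deposited table, at a mean of 33.2 normalized counts over both groups (adjusted p = 0.00931). Thus among mTORC2 genes RICTOR was called higher, at the edge of the threshold, while MAPKAP1 and PRR5L were called lower. PRR5 of the same list was not called per the authors' deposited table (adjusted p = 0.896, log2 fold change −0.03). No test of these differences was made. Of 6 genes for assembly of mTOR and related kinases 2 fell, the ATPase gene RUVBL1 at a log2 fold change of −0.39 and WAC at −0.22 per the authors' deposited table (adjusted p = 0.000473 and 0.0139). The share called in the assembly list was 33.3%, also beside 44.5%.

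The amino acid arm was split. Of 12 Rag GTPase, Ragulator and folliculin genes 2 rose and 3 fell, 41.7% called beside 44.5% of all tested genes. RRAGD, one of the Rag GTPases that hold mTORC1 at the lysosome, fell to 53.0% of scramble per the authors' deposited table (adjusted p = 9.46e-17, log2 fold change −0.92). LAMTOR2, a subunit of the Ragulator that anchors the Rags, fell to 51.2% per the authors' deposited table (adjusted p = 1.68e-09, log2 fold change −0.97). FLCN, which encodes the folliculin protein that acts on RRAGC and RRAGD, rose per the authors' deposited table (adjusted p = 0.000444, log2 fold change 0.41). In the GATOR and KICSTOR list 5 of 12 rose and none fell, and the median log2 fold change of the list was 0.02. That is 41.7% called beside 44.5% of all tested genes, of which 21.3% rose and 23.2% fell. WDR59 of GATOR2 and ITFG2 of KICSTOR, the complex that tethers the inhibitory GATOR1 to the lysosome, rose by log2 fold changes of 0.49 and 0.54 per the authors' deposited table (adjusted p = 9.64e-07 and 0.00201). Of 7 amino acid sensor genes 1 fell, the S-adenosylmethionine sensor SAMTOR, listed as C7orf60, at a log2 fold change of −0.48 per the authors' deposited table (adjusted p = 0.00534). The share called in the sensor list was 14.3%, below the 44.5% of all tested genes. The leucine sensor gene SESN2 was not called at −0.20 per the authors' deposited table (adjusted p = 0.231).

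The growth factor arm held the largest fold change of all the lists. PIK3AP1, which encodes BCAP, an adaptor that joins B-cell receptor signalling to PI3-kinase, fell to 30.3% of scramble per the authors' deposited table (adjusted p = 1.03e-125, log2 fold change −1.72) and ranked 3 by p-value among tested genes. Of 21 tested PI3K and AKT genes 3 rose and 6 fell, 42.9% called beside 44.5% of all tested genes. AKT1 fell and AKT2 rose by nearly the same amount, with log2 fold changes of −0.53 and 0.52 per the authors' deposited table (adjusted p = 4.27e-12 and 1.1e-11), at means of 2208 and 2389 normalized counts. In the LKB1 and AMPK list 2 of 10 tested genes fell, STRADB at −0.48 and STK11, which encodes the kinase LKB1, at −0.30 per the authors' deposited table (adjusted p = 0.000597 and 0.00204). The share called in that list was 20%, below the 44.5% of all tested genes, of which 21.3% rose and 23.2% fell. PRKAA2 of that list was listed at 0.

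Downstream of both complexes 7 of 19 tested effector genes rose and 5 fell, 63.2% called beside 44.5% of all tested genes. The share was 51.6% for tested genes with means between 451 and 1841 normalized counts. Means of the tested effectors ran from 20.4 to 32590 normalized counts, and the part of mean level in their share was not tested. LARP1, which binds the 5′ ends of ribosomal protein transcripts under mTORC1 control, and the lipid phosphatase gene LPIN1 rose by 0.41 and 0.38 on the log2 scale per the authors' deposited table (adjusted p = 1.43e-09 and 2.48e-05). GRB10, an adaptor stabilised by mTORC1 that damps insulin signalling, and EIF4EBP1, which encodes the translation repressor 4E-BP1, were at −0.50 and −0.52 per the authors' deposited table (adjusted p = 4.28e-08 and 0.000379), both called lower. RPS6KB1, the gene of the main S6 kinase, was not called per the authors' deposited table (adjusted p = 0.327, log2 fold change 0.12). SGK3 had a p-value and no adjusted p. Of 6 transcription factors known to induce DDIT4, none rose and 2 fell, and their median log2 fold change was −0.03. That is 33.3% called beside 44.5% of all tested genes, of which 21.3% rose and 23.2% fell. CEBPB fell to 61.4% of scramble and HIF1A to 78.1% per the authors' deposited table (adjusted p = 4.31e-06 and 0.000523).

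**Figure D4:**
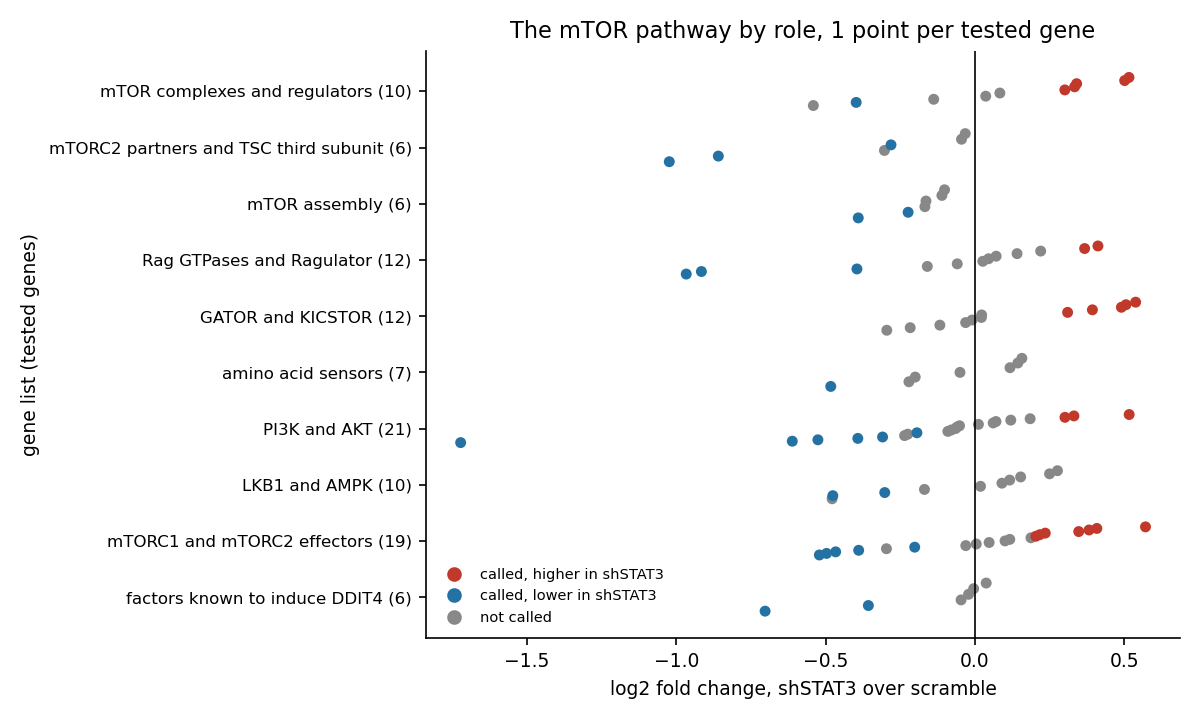
Log2 fold change, shSTAT3 over scramble (horizontal axis), with 1 point per tested gene, in rows for the 10 genes and for 9 lists of other pathway genes, with the number of tested genes in brackets. PIK3AP1 lies alone at −1.72 in the PI3K and AKT row, and the called genes of the GATOR and KICSTOR row all lie to the right of 0.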

How the data were processed

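Total RNA of 6 REH cultures was sequenced from TruSeq RNA v2 libraries, per the labels' protocols. DESeq2, featureCounts, Bowtie2, Trimmomatic, Picard, bcl2fastq 2.19 and the build hg38 appear in the submitters' processing notes without order or settings. For the annotation, the use of strand and the model formula the entry is: not given in the sources used here. Each mean the authors deposited is a normalized signal, counts divided by size factors and averaged over 6 libraries, per the file headers. The authors' fold change is on the log2 scale, and the p-value and adjusted p are those deposited. The fold changes are shrunken, since the 1353 genes with 1 read have values within 0.0593 of 0.

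The plan fixed the authors' adjusted p under 0.05 as the call, over the 12061 genes that have one (lowest mean 10.0). Recomputing the Benjamini-Hochberg adjustment gave the deposited values within 2.87e-07. Standard errors were computed from fold change and p as for a Wald test, with 95% intervals that describe shrunken values. On simulated Wald p-values for the 12061 genes of this comparison the largest error was 0.0164% of the standard error, leaving out fold changes very near 0. The simulated p-values were made by the same formula, so they check the computation and not whether the deposited p-values are of this kind. In 8 classes of mean the median standard error of genes with small fold changes was 0.970 to 1.01 times that of genes with large ones, near the 1 of a Wald test. Size factors read from the lowest means, 1 read in 1 library, lay between 0.935 and 1.13, around 11485068 normalized counts per library. Exon lengths (94.4% of tested genes) and positions came from GENCODE 29, promoters from RefSeq.

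The genes and lists were chosen with earlier results of these data known. Genes named are the 10, STAT3, of each list the called genes of smallest adjusted p (at most 3), and some fixed by name (among them AKT1, RPS6KB1, EIF4EBP1, SESN2, TBC1D7, MAPKAP1 and DDIT4L). Some of the genes this rule names are not reported here. Others, chosen after their values were seen, are overlapping genes, RHEBL1, PRR5, PRKAA2, SGK3 and those of the high-error group. Motifs were chosen after the fold changes were seen. Alternatives were other thresholds, filters, adjustment and centring, and another length. Computations used scipy 1.17.1, pandas 2.3.3 and numpy 2.4.6 in Python 3.11.15, and figures matplotlib 3.10.9.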

Additional observations from a re-analysis of the deposited data

How the results depend on the processing

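Of the 7 alternatives of threshold, filter, adjustment or centring, the 2 centrings alter fold changes, and no direction among the 10 genes changed under them. RICTOR lost its call in 5 of the 7, at an adjusted p under 0.01, without a filter on the mean (0.0723), with Bonferroni and when centred on the median of tested genes (0.0523) or of the class of mean (0.0685). Bonferroni adjustment left 1 of the 10 genes called (TSC2), 13 of the other pathway genes in place of 41, and 2010 of all tested genes in place of 5369. DEPTOR could not be tested at a mean of at least 50. With the longest transcript as length, levels per kilobase were 1053 for DDIT4, 314 for MLST8, 276 for TSC2, 228 for RHEB, 205 for MTOR, 198 for RPTOR, 124 for AKT1S1, 116 for RICTOR, 104 for TSC1 and 8.46 for DEPTOR, so that TSC2 moved from rank 6 to rank 3. No paired analysis was possible because the table holds no value per library, and leaving out a replicate was not run for the same reason. Depth limits DEPTOR most, with a standard error of 0.31 on the log2 scale.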

Other observations

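DDIT4 was among 65 of the tested genes (0.539%) whose standard error was more than 2 times the median of their class of mean, a limit chosen after the values were seen. The standard errors of tested genes, computed from shrunken fold changes, reach at most 0.335, so no gene of the 2 lowest classes, with means up to 138, could pass this limit. The 65 genes held 41 negative and 24 positive fold changes. Of the 65, 21 (32.3%) were called, 13 lower and 8 higher, beside 44.5% of all tested genes. The 5 others with the highest ratios were AKAP12, which encodes a scaffold for protein kinase A, LDHA, a lactate dehydrogenase subunit gene, the arrestin-domain gene ARRDC3, the chaperone gene HSPH1 and the transcription factor gene OLIG1. Their ratios were 3.71, 3.47, 3.39, 3.29 and 3.24, beside 3.69 for DDIT4. Log2 fold changes in the authors' deposited table were −0.60, −0.87, 0.58, −0.03 and 0.70, of which LDHA was called lower and OLIG1 higher. The cause of these large standard errors was not tested.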
